A study of Mus musculus with 16 samples.

Results

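The CDK inhibitor genes of the mouse were examined for peaks of Jarid2 and of Jarid2 carrying di-methylated lysine K116 (Jarid2-K116me2), and for the H3K27me3 found around them. The group holds 7 of 22367 annotated protein-coding genes, 3 of the Cdkn1 family (Cdkn1a, Cdkn1b and Cdkn1c) and 4 of the Cdkn2 family (Cdkn2a, Cdkn2b, Cdkn2c and Cdkn2d). A peak was assigned to a gene when it overlapped the gene or lay within 25 kb of it in the GENCODE annotation of NCBIM37, which is the mm9 build of the deposited coordinates. In all, 16 of 4992 Jarid2 peaks and 14 of 4502 Jarid2-K116me2 peaks were assigned in this way. The genes were chosen by these peak lists and their scores in E14 cells, so the peaks are given as a description, with no test. The H3K27me3 values come from other samples, and they were tested.

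The Jarid2 and Jarid2-K116me2 ChIP-seq was done in E14 mouse embryonic stem cells (ESC) grown in serum with LIF, with 1 sample per antibody. H3K27me3 ChIP-seq was done in 12 samples of 3 ESC lines, all of them derived from Jarid2-/- cells: Jarid2-/- cells with no transgene, Jarid2-/- cells rescued with Jarid2, and Jarid2-/- cells rescued with Jarid2 K116A, in which alanine replaces the methylated lysine. Both rescues carry a bacterial artificial chromosome with the Jarid2 gene, brought in by a transposon, and whether each line is a clone is not given in the sources used here. Each line was profiled in undifferentiated ESC and in embryoid bodies (EBs) formed in hanging drops without LIF, at 8 days of differentiation, with 2 replicates per line and stage that the study describes as independent biological samples. EBs hold many cell types, so a share of marked cells and a change within each cell cannot be told apart in them. The E14 cells and the 3 lines are different cultures, and no H3K27me3 sample of E14 was analysed here.

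CDK inhibitors bind cyclin-dependent kinases and hold back progression through the cell cycle. Members of the Cip/Kip group, encoded by Cdkn1a (p21), Cdkn1b (p27) and Cdkn1c (p57), act on a wide range of cyclin-CDK complexes, whereas the INK4 group, encoded by Cdkn2a (p16), Cdkn2b (p15), Cdkn2c (p18) and Cdkn2d (p19), binds the kinases Cdk4 and Cdk6. Cdkn2a also encodes Arf, from another start site and another reading frame, which acts on the p53 pathway through Mdm2. PRC2 deposits H3K27me3 on the promoters of many silent developmental genes in ESC, Jarid2 is a cofactor of PRC2, and the Cdkn2a-Cdkn2b locus is a textbook Polycomb target that is opened in senescent cells.

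The start sites differed in their sequence, and 5 of them are shown because between them they cover the cases found: Jarid2 alone (Cdkn1b), both antibodies at a CpG-rich start (the Arf start, Cdkn2a-002), both antibodies at a CpG-poor start (the p16 start, Cdkn2a-001, and Cdkn2c-001), and no peak (Cdkn2d). Each is the stretch of 150 bases just before the annotated start, read 5′ to 3′ along the gene from the NCBIM37 genome, with every CpG in capitals. They are chr6:134870269-134870418 on the plus strand, and on the minus strand chr4:88940558-88940707, chr4:88928097-88928246, chr4:109339795-109339944 and chr9:21095654-21095803, in the order of the lines.
Cdkn1b-001: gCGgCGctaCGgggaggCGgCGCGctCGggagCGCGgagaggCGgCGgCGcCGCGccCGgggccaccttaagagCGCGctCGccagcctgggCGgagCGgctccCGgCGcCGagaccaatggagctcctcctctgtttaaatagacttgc
Cdkn2a-002: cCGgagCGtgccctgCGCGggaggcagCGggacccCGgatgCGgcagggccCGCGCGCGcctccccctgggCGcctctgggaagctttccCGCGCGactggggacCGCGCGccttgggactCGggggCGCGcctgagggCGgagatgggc
Cdkn2a-001: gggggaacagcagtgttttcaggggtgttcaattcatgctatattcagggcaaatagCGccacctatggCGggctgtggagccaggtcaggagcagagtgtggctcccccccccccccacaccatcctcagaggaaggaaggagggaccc
Cdkn2c-001: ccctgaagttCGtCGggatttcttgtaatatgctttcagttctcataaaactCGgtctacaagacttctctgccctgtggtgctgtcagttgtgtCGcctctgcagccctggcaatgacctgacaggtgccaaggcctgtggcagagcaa
Cdkn2d-201: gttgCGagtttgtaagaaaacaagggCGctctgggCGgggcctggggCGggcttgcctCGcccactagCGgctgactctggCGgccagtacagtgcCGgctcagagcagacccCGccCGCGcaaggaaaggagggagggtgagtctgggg

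These stretches held 23 CpGs at Cdkn1b, 22 at the Arf start, 2 at the p16 start, 4 at Cdkn2c-001 and 11 at Cdkn2d. CG, which reads the same on both strands, was present in 95.1% of the 300-base promoters (ending 50 bases past the start) of 22362 protein-coding genes, with a median ratio of observed to expected CpG of 0.534. Cdkn1b and the Arf start stood high in this distribution, each with a ratio of 1.04. The p16 start (0.442) and Cdkn2c-001 (0.455) fell below the median, and Cdkn2d (0.681) fell above it. Peak scores did not follow this order throughout. The CpG-rich Arf start and the CpG-poor Cdkn2c-001 start both lay under peaks of 3100 for both antibodies. The CpG-rich Cdkn1b start lay under a Jarid2 peak of 160.93 only, and Cdkn2d, with an intermediate ratio, lay under none. The ratios are those of the 300 bases and not of the peaks. Over their whole width the peaks at Cdkn2c-001 had ratios of 0.681 (Jarid2) and 0.765 (Jarid2-K116me2), where the median of all Jarid2 peaks was 0.574.

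The score of a Jarid2 peak is minus 10 times the log10 of its p-value from MACS, and many strong peaks tie at 3100: 719 Jarid2 peaks and 906 Jarid2-K116me2 peaks had exactly this value, and 34 and 39 exceeded it. A Jarid2 peak was found at 6 of the 7 CDK inhibitor genes, and so was a Jarid2-K116me2 peak, where 25.9% and 22.9% of all protein-coding genes had such a peak within 25 kb. A start site lay under a Jarid2 peak at 6 of the genes and under a Jarid2-K116me2 peak at 4, against 13.5% and 11.9% of all protein-coding genes. Cdkn2d was the gene with no peak of either antibody. A partner in the other list was found for 10 of the 16 Jarid2 peaks (62.5%), compared with 79.1% over the whole Jarid2 list, and for all 14 Jarid2-K116me2 peaks, compared with 98.7% over that whole list. With an overlap of at least 50% of each peak, 9 peaks of each list remained common. The 6 peaks without a partner had Jarid2 scores of 111 to 545.32, and 3 of them lay at Cdkn2a and Cdkn2b, 2 at Cdkn1c and 1 at Cdkn1b. There is no replicate of either antibody, and the reads in each peak are not in the lists, so no error of a single score is given.

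**Figure D1:**
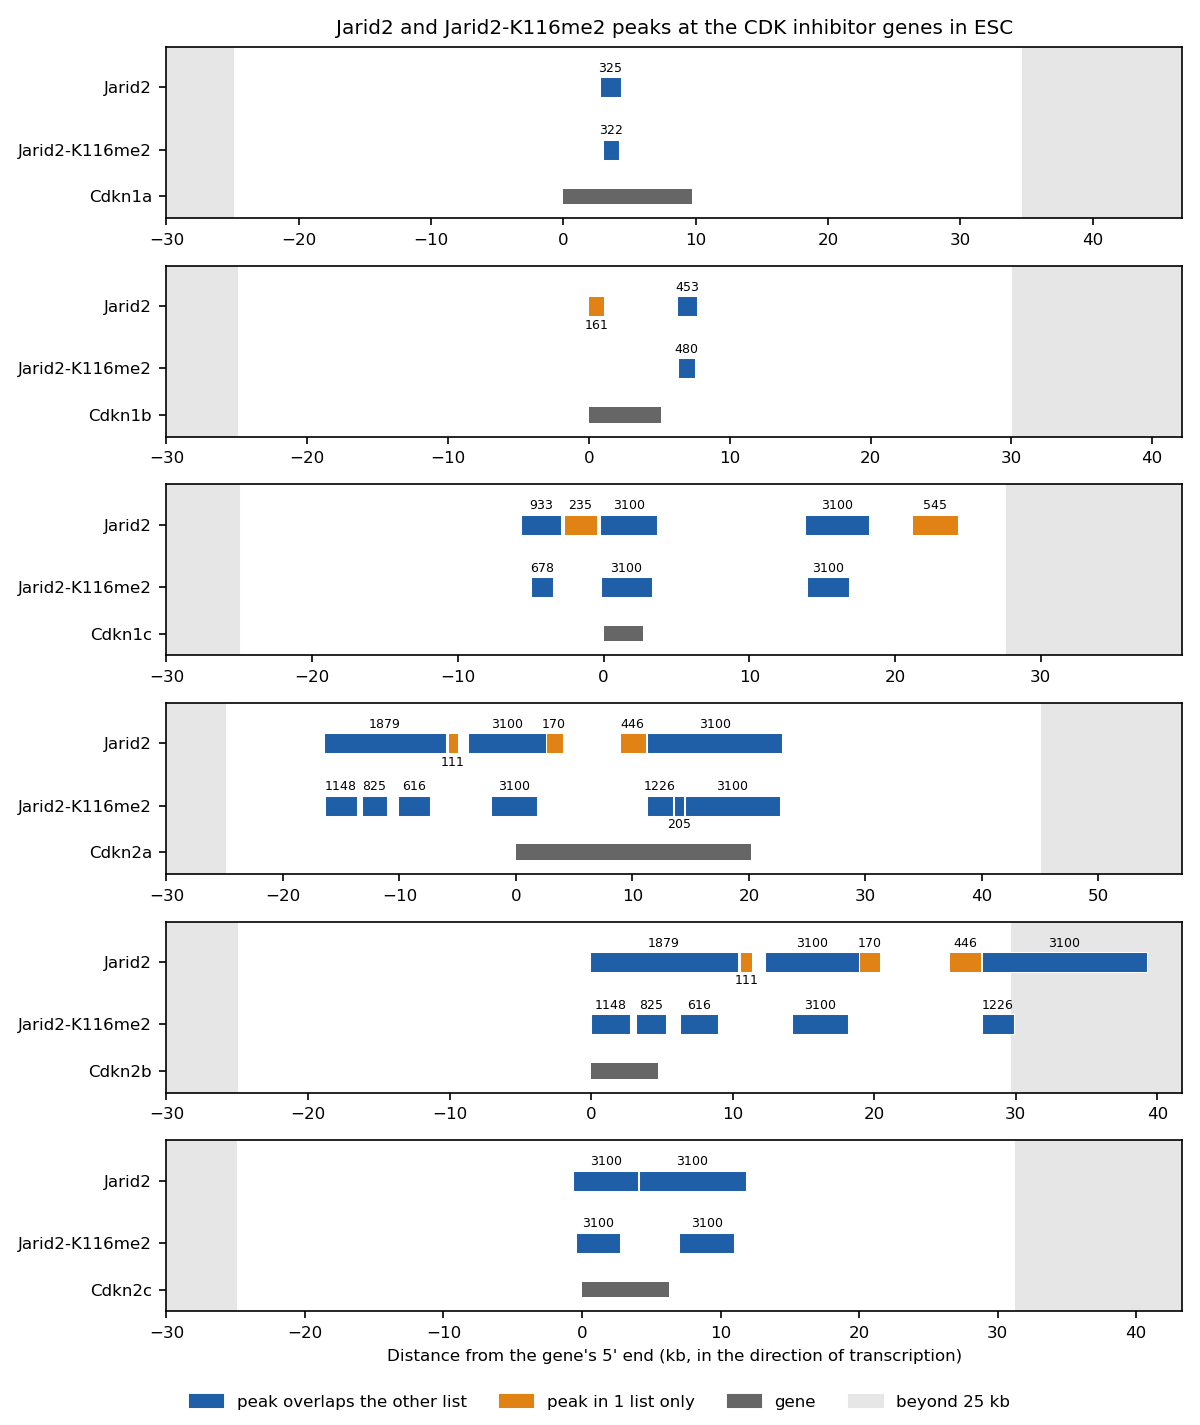
Jarid2 and Jarid2-K116me2 peaks around 6 CDK inhibitor genes in E14 ESC, by distance from the gene's 5′ end in kb along the direction of transcription, with the MACS score printed at each bar. Blue bars overlap a peak of the other list and orange bars, all in the Jarid2 rows, do not; Cdkn2d had no peak and is not drawn.

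The Cdkn1 genes lie on 3 chromosomes, Cdkn1a at chr17:29227924-29237667 on the plus strand, Cdkn1b at chr6:134870419-134875531 on the plus strand and Cdkn1c at chr7:150644255-150646955 on the minus strand. Cdkn1a, which p53 induces after DNA damage, had 1 peak of each antibody (chr17:29230685-29232266, Jarid2 score 325.2, and chr17:29230942-29232152, Jarid2-K116me2 score 321.88). The Jarid2 peak lay over the start of the transcript Cdkn1a-001 and the intron after it, and the Jarid2-K116me2 peak lay in that intron and did not reach the start. They ranked at 40.6% and 31.1% of their lists, with 0% being the weakest peak. Cdkn1b, which restrains Cdk2 in quiescent cells, had a narrow Jarid2 peak of 1148 bp over its start (chr6:134870367-134871514, score 160.93) that had no Jarid2-K116me2 partner. A common site lay 1165 bp beyond its 3′ end, with a Jarid2 score of 453.34 (chr6:134876696-134878094) and a Jarid2-K116me2 score of 480.5 (chr6:134876715-134877962).

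Cdkn1c, an imprinted gene that limits growth of the embryo and placenta, had the richest set of this family. A Jarid2 peak of 3913 bp and a Jarid2-K116me2 peak of 3456 bp, both scoring 3100, covered the gene's start (chr7:150643281-150647193 and chr7:150643659-150647114). A second common site scoring 3100 for both lay downstream, 11110 bp from the gene (chr7:150628731-150633145 for Jarid2), and another lay 2918 bp upstream with scores of 933.48 and 678.06 (chr7:150649873-150652593 for Jarid2). The other 2 Jarid2 peaks, of 235.15 just upstream and of 545.32 downstream at 18480 bp, had no Jarid2-K116me2 partner. The latter was the outermost peak inside the 25 kb limit, and the nearest Jarid2 peak beyond it lay 39939 bp from Cdkn1c at the start of Phlda2, with 1627.81 for Jarid2 and 1562.82 for Jarid2-K116me2.

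In the Cdkn2 family, Cdkn2a (chr4:88920377-88940557) and Cdkn2b (chr4:88952198-88956941) stand next to each other, both on the minus strand, and their peaks were shared: the 6 Jarid2 peaks assigned to Cdkn2a were also the 6 assigned to Cdkn2b. Over the 36565 bp from the 3′ end of Cdkn2a to the start of Cdkn2b (chr4:88920377-88956941), Jarid2 peaks covered 83.5% of the bases and Jarid2-K116me2 peaks 55.3%. The widest Jarid2 peak (chr4:88917697-88929306, 11610 bp, score 3100) ran over the p16 start to beyond the 3′ end of Cdkn2a and also covered the start of Gm12606, and it matched 3 Jarid2-K116me2 peaks with scores of 1226.14 over the p16 start, 205.49, and 3100 over the 3′ part of the gene. The Arf start lay under a Jarid2 peak of 6652 bp and a Jarid2-K116me2 peak of 3937 bp, both scoring 3100 (chr4:88938010-88944661 and chr4:88938782-88942718). Cdkn2b lay wholly under a Jarid2 peak of 10436 bp with a score of 1878.6 (chr4:88946581-88957016), which matched 3 Jarid2-K116me2 peaks with scores of 1148.25 over the start, 824.78 and 615.56. The 3 Jarid2 peaks with no Jarid2-K116me2 peak (446.47, 170.11 and 111) lay in the Cdkn2a intron and between the genes, next to these wide peaks.

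Cdkn2c (chr4:109333481-109339794, minus strand) had 2 adjoining Jarid2 peaks, both common and both scoring 3100 for each antibody. The upstream peak (chr4:109335732-109340413, 4682 bp) covered both annotated starts, and its Jarid2-K116me2 partner spanned 3187 bp (chr4:109337056-109340242). The downstream peak (chr4:109327931-109335695, 7765 bp) covered the 3′ part of the gene and the start of 9630013D21Rik. Cdkn2d (chr9:21092907-21095653, minus strand) had no peak: the nearest Jarid2 peak lay 39675 bp away at the start of S1pr5, with a score of 128.86, and the next lay at 42541 bp in the same gene, with scores of 1995.02 for Jarid2 and 2809.32 for Jarid2-K116me2. For Cdkn2b the limit also split the Jarid2-K116me2 peaks of the neighbouring gene, with 1 inside at 22894 bp and 2 outside at 25212 and 26154 bp.

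Both families had 8 Jarid2 peaks each, of which 5 were common and 3 were not, while 5 and 9 Jarid2-K116me2 peaks were found in the Cdkn1 and Cdkn2 families. The Jarid2 peaks of the Cdkn2 family were wider, with a median of 5667 bp (863 to 11610) against 2495 bp (1148 to 4415), and their median score was 2489.3 against 499.33. For Jarid2-K116me2 the median widths were 2769 and 1549 bp and the median scores 1226.14 and 678.06. A Jarid2 peak covered a start in all 3 Cdkn1 genes and in 3 of the 4 Cdkn2 genes, and a Jarid2-K116me2 peak covered a start of Cdkn1c alone among the former and of the same 3 genes among the latter. The differences between the families rest on few genes, and the 8 Cdkn2 peaks come from 2 loci. Within the Cdkn1 family, Cdkn1c accounted for 5 of the 8 Jarid2 peaks and for both at 3100. Every base under a Jarid2-K116me2 peak at these genes lay under a Jarid2 peak, and the bases covered by both made up from 48.0% of the Jarid2 bases at Cdkn1c to 76.5% at Cdkn1a.

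Among 31 genes of the cell cycle engine that these inhibitors act on or work with (cyclins, CDKs, the Rb and E2F families, Skp2, Mdm2 and Trp53), 10 had a Jarid2 peak within 25 kb and 9 a Jarid2-K116me2 peak, and only Cdk6 and Ccnd2 had a peak over a start. Cdk6, a kinase target of the INK4 proteins, scored 3209.41 for Jarid2 and 3100 for Jarid2-K116me2, and its partner cyclin Ccnd2 scored 3100 for both. For these genes the share with a peak within 25 kb (32.3% and 29.0%) stood near the 25.9% and 22.9% of all genes, and the share with a covered start (6.45%) stood below the 13.5% and 11.9% of all genes.

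H3K27me3 was then measured as the share of the 10 kb around each gene's 5′ end (5 kb on each side) that lay under broad peaks, in each of the 12 samples. For Cdkn2a this end is the Arf start, and the p16 start lies outside the window. For Cdkn1a it is the start of Cdkn1a-003, and the Cdkn1a-001 start under the Jarid2 peak lies inside the window. The peak callers' lists varied widely in length, from 1478 broad peaks in ESC Jarid2 rescue replicate 1 to 14125 in EB Jarid2-/- replicate 2. Replicate 1 had fewer than replicate 2 in every line and stage, and in most cases below its covered share was the lower one. The study calls its replicate 2 samples those of higher quality and took its peaks for comparing ESC with EBs from them. Both replicates were used here. Read totals are not in the peak lists. The study states them for each library, and they were not used here. By those totals both Jarid2 rescue EB libraries were shallower than every other EB library, while the shortest list, that of ESC Jarid2 rescue replicate 1, came from the deepest ESC library. The part of depth in the results was not tested. Of the pluripotency genes Pou5f1, Nanog, Esrrb, Zfp42 and Tcl1, which are active in ESC, none had a broad peak in its window in any ESC sample, and 1 EB sample had a peak at Pou5f1. The deletion of Jarid2 itself cannot be checked from H3K27me3. A broad peak in at least 1 ESC sample was found for 25.7% of protein-coding genes and in at least 1 EB sample for 32.1%. In all 6 EB samples 12% had a peak. There were 4 CDK inhibitor genes (Cdkn1c, Cdkn2a, Cdkn2b and Cdkn2c) with 1 in at least 5 ESC samples and all EB samples. The share of all genes meeting both conditions was not counted, and it cannot exceed the 12%. The members were chosen with peaks of Jarid2, a PRC2 cofactor, known, so this count is a description only.

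In EBs, Cdkn2a, measured around the Arf start, was the member with the highest mean share. In ESC the mean of Cdkn2a was close to that of Cdkn1c. Its window was covered to 50.5% and 100% in the 2 replicates of Jarid2-/- ESC, to 0% and 86.0% in ESC rescued with Jarid2, and to 59.5% and 100% in ESC rescued with Jarid2 K116A. In EBs the shares were 100% and 100%, 81.6% and 81.8%, and 100% and 100% in the same order. The mean was 66.0% ± 38.3 in ESC and 93.9% ± 9.45 in EBs (SD, n = 6 each), a difference of 27.9 percentage points that did not pass the test (two-sided exact permutation test over 924 assignments, p = 0.139, adjusted p = 0.418). The 3 lowest ESC values were those of replicate 1, and between the replicate 2 samples alone the difference was -1.40, and without ESC Jarid2 rescue replicate 1 it was 14.7.

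Cdkn2b lay under less of the mark in every line. The shares were 22.5% and 48.2% in Jarid2-/- ESC, 0% and 43.0% with Jarid2 and 39.5% and 65.0% with Jarid2 K116A, and in EBs they were 50.2% and 82.1%, 44.3% and 43.7%, and 85.4% and 83.9%. Within each line both EB samples were above both ESC samples. The gaps were narrow with Jarid2 (43.7% against 43.0%) and in Jarid2-/- cells (50.2% against 48.2%). The share of all genes with this order was not counted. The mean difference was 28.6 percentage points (36.4% ± 22.5 in ESC and 64.9% ± 20.8 in EBs, SD, n = 6 each, exact permutation p = 0.0411, adjusted p = 0.21). Between the replicate 2 samples alone it was 17.8. Cdkn2c had broad peaks in all 12 samples, including the sample with the fewest peaks. Its shares were 33.7% and 63.9%, 15.3% and 38.3%, and 39.5% and 55.5% in ESC and 42.0% and 48.3%, 41.9% and 39.8%, and 67.1% and 74.7% in EBs, with means of 41.0% ± 17.1 and 52.3% ± 14.8 (SD, n = 6 each), a difference of 11.3 percentage points (exact permutation p = 0.262, adjusted p = 0.573). It was 6.12 without ESC Jarid2 rescue replicate 1, and 1.71 between the replicate 2 samples alone. The groups of Cdkn2c overlapped between the stages in Jarid2-/- cells and did not in the 2 rescued lines. With Jarid2 the gap was narrow (39.8% against 38.3%), and the share of all genes with this order was not counted.

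Cdkn1c, on the same scale, had 42.1% and 100% in Jarid2-/- ESC, 0% and 84.6% with Jarid2 and 82.6% and 100% with Jarid2 K116A, and 15.2% and 42.9%, 36.4% and 55.7%, and 73.5% and 100% in EBs. The stages overlapped in all 3 lines, with means of 68.2% ± 39.6 in ESC and 54.0% ± 29.8 in EBs (SD, n = 6 each), and the difference of -14.3 percentage points did not pass the test (exact permutation p = 0.496, adjusted p = 0.742). Leaving out a single sample moved it between -27.9, without ESC Jarid2 rescue replicate 1, and -6.51, without EB Jarid2-/- replicate 1. Its direction depended on the window: it was 4.73 percentage points with 10 kb on each side and 13.2 over the gene and 25 kb on each side. Cdkn1a had a small peak inside its window in 5 of 6 ESC samples, 4.48% and 8.57%, 0% and 6.58%, and 6.28% and 10.4% of the window, and none in any EB sample. The ESC sample without it is ESC Jarid2 rescue replicate 1, whose list is the shortest. The ESC mean was 6.06% ± 3.61 (SD, n = 6), and the difference of -6.06 percentage points had an exact permutation p of 0.0152 and an adjusted p of 0.11 over all 8176 genes tested, and without that sample the adjusted p was 0.06. A pattern of at least 5 ESC samples and no EB sample with a peak was seen for 0.599% of the genes tested. No annotated start of Cdkn1a lay under a broad peak in any sample.

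Cdkn1b had a peak of 898 bp in 1 sample (ESC Jarid2-/- replicate 2, score 36.96) and in no other (exact permutation p = 1, adjusted p = 1). Cdkn2d had no broad peak in its window in any sample, and was not tested. Within 25 kb of Cdkn2d, both EB Jarid2-/- samples had a small peak, of 518 and 1048 bp, more than 20 kb from the gene and in or beside Ap1m2. None of the 6 CDK inhibitor genes tested passed an adjusted p of 0.05 with the permutation test, or with limma with stage and line as terms, and 2 (Cdkn1a and Cdkn2b) had an unadjusted p under 0.05. Replicate 1 had the shorter list throughout, and with replicate number as a further term limma called Cdkn1a (adjusted p = 0.0329) and Cdkn2b (adjusted p = 0.0131). In the permutation test 5.33% of the 8176 genes were called higher in EBs and 0.0612% lower, and 1686 genes had an unadjusted p under 0.05. The median difference of all genes tested was 4.49 percentage points and 73.6% of them had a higher mean in EBs. The smallest p the test can give is 0.00216, so a gene can be called only where many genes share it, and leaving out any 1 of 8 of the 12 samples brought the calls over all genes to 0.

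**Figure D2:**
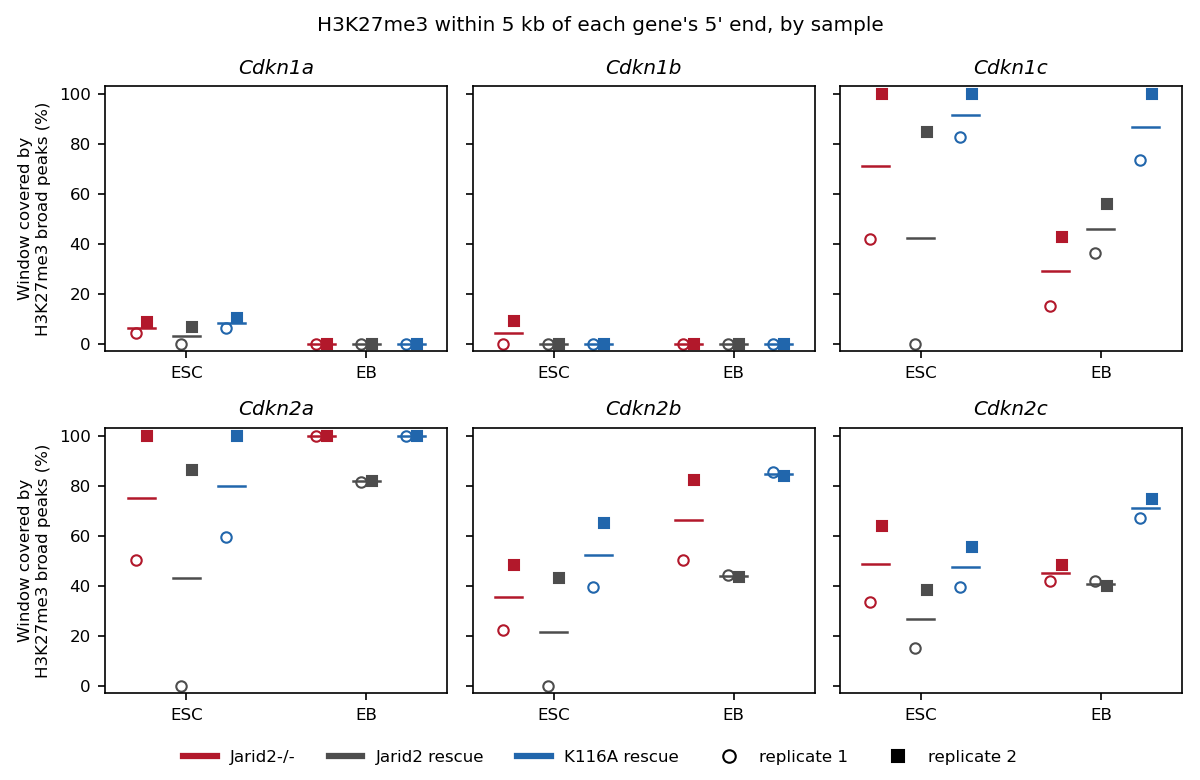
Share of the 10 kb around the gene's 5′ end covered by H3K27me3 broad peaks, in percent, for 6 CDK inhibitor genes, with 1 symbol per sample (open circle, replicate 1; filled square, replicate 2) and a horizontal line at the mean of the 2 replicates. Cdkn1a has values above 0 in ESC only, Cdkn1b is at 0 in 11 of 12 samples, and Cdkn2b reaches its highest values in EBs of the Jarid2-/- and K116A lines, where Cdkn2a is at 100% in all 4 samples. The window of Cdkn2a is that of the Arf start.

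The lines were compared with the Jarid2 rescue within each stage. With 2 samples against 2, no permutation p can go below 0.333, so only the order of the samples is given. In ESC, both Jarid2-/- samples were above both rescued samples for 0 members and below for 0, against 0.954% and 0.0734% of genes tested. Both K116A samples were above both rescued samples for 1 member, Cdkn2c, against 3.14% of the genes tested. No member was below, against 0.0612%. Against rescue replicate 2 alone, set apart because replicate 1 had the fewest peaks, the counts above were again 1 for K116A and 0 for Jarid2-/-, and none was below, where 11% of genes tested lay below for Jarid2-/- and 23.7% for K116A.

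In EBs, both Jarid2-/- samples were above both rescued samples for Cdkn2a, Cdkn2b and Cdkn2c, which is 3 of the 6 members with a peak. Of all genes tested, 44.2% had this order, so the members stand near the background, and no member was below, against 3.82%. For Cdkn2c the shares nearly touch, with 42.0% as the lower Jarid2-/- value and 41.9% as the higher rescued value. With each sample's mean share subtracted, only Cdkn2a was above and 4 were below (Cdkn1c, Cdkn2c, and Cdkn1a and Cdkn1b, which had no peak there), against 24.8% above and 46.3% below of all genes tested on this scale. The mean share over all genes tested was 20.1% and 28.4% in Jarid2-/- EBs and 13.8% and 14.7% in the rescue. Both K116A samples were above both rescued samples for Cdkn1c, Cdkn2a, Cdkn2b and Cdkn2c, 4 of the 6 members with a peak, and no member was below. Of all genes tested, 27% had the higher order and 5.52% the lower. With each sample's mean share subtracted (16.3% and 23.1% in K116A EBs) these 4 were again above, and Cdkn1a and Cdkn1b, with no peak in any of these samples, came out below, against 19.9% above and 54.8% below of all genes tested. In ESC the same subtraction put Cdkn2c above for Jarid2-/- (3.85% above and 4.82% below of all genes tested) and Cdkn1c, Cdkn2b and Cdkn2c above for K116A (5.57% and 8.02%), with no member below. In EBs with no subtraction, K116A exceeded the rescue by a mean of 40.7 percentage points at Cdkn1c and 40.6 at Cdkn2b. It did so by 18.3 at Cdkn2a and 29.96 at Cdkn2c. At Cdkn2a both K116A samples stood at 100%, so a larger difference could not be seen there. Jarid2-/- EBs, also at 100% in both samples, exceeded the rescue by the same 18.3. Cdkn2a and Cdkn2b are neighbours and share broad peaks, so their values are not independent of each other. Over the gene and 25 kb on each side, 4 members were above the rescue in Jarid2-/- EBs (Cdkn2a, Cdkn2b, Cdkn2c and Cdkn2d), against 52.4% of genes, and none was below, against 3.38%. The same 4 members as in the 10 kb windows were above in K116A EBs, against 26% of genes, and none was below, against 7.33%. In ESC no member was above or below on this scale, against 0.887% and 0.0644% of genes for Jarid2-/- and 2.93% and 0.0715% for K116A.

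The form of the domain over Cdkn2a and Cdkn2b differed between samples. In both K116A EB samples a single broad peak, of 49408 and 49564 bp, ran without a break from Cdkn2b past the 3′ end of Cdkn2a, and in EB Jarid2-/- replicate 2 a peak of 50555 bp did so too. In ESC such an unbroken peak, of 40855 bp, was found in Jarid2-/- replicate 2. In EB Jarid2-/- replicate 1 the interval held 2 peaks, the wider of 26818 bp. In EBs rescued with Jarid2, 3 and 4 separate peaks covered 89.5% and 83.5% of the interval, with breaks over the Cdkn2b start, between the genes and over the Arf start. Neither the Arf start nor the Cdkn2b start lay under H3K27me3 in any sample of the Jarid2 rescue, in ESC or EBs, while the p16 start lay under it in both EB samples and 1 ESC sample of that line. In all, the p16 start was covered in 3 ESC and 5 EB samples, the Arf start in 2 and 4, and the Cdkn2b start in 0 and 3. The 3 EB samples with the Cdkn2b start covered were both K116A samples and Jarid2-/- replicate 2. A peak is broken or joined by the caller according to its signal and the sample's background.

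The scores within each sample were compared next. A broad-peak score has no stated scale, so its rank within the sample is given, where 100% would be above every other peak. The highest score at Cdkn2a was 225.48 and 339.09 in the K116A EB samples, at the 99.5% and 99.8% ranks. It was 93.87 and 56.51 in EBs rescued with Jarid2 (93.1% and 76.0%), and 93.37 and 128.79 in Jarid2-/- EBs (91.1% and 94.1%). Cdkn2c had 265.58 and 335.58 in K116A EBs (both at 99.8%), 149.77 and 123.87 with Jarid2 (98.8% and 98.9%), and 167.21 and 236.79 in Jarid2-/- EBs (99.0% and 99.5%), so it ranked among the strongest domains in all 6 EB samples. By this rank, 3 members (Cdkn2a, Cdkn2b and Cdkn2c) were higher in both K116A EB samples than in both rescued samples, against 22.7% of genes tested, and none was lower, against 7.83%. For Jarid2-/- EBs, Cdkn2c was higher, against 43.1% of genes tested, and Cdkn1c was lower, at 27.2% and 46.6% against 47.4% and 69.3% in the rescue, an order seen in 4.2% of genes tested. In ESC, Cdkn2a was the member with a higher rank in both K116A samples, against 5.31% of genes tested (0.0489% were lower), and no member was ordered for Jarid2-/- ESC, against 2.24% higher and 0.0856% lower.

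**Figure D3:**
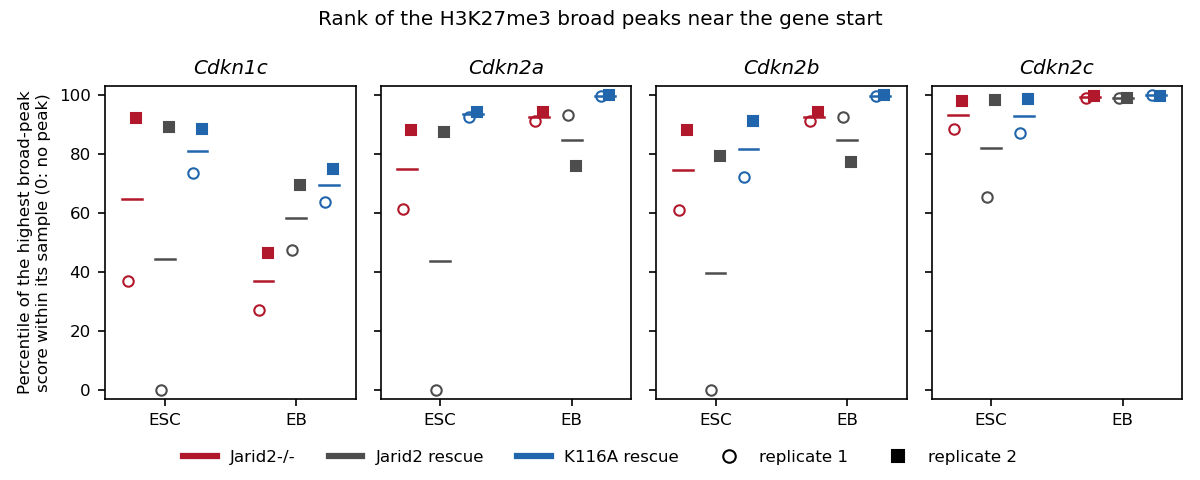
Rank of the highest-scoring H3K27me3 broad peak in the 10 kb around the gene's 5′ end among all broad peaks of its sample, in percent, for Cdkn1c, Cdkn2a, Cdkn2b and Cdkn2c, with 1 symbol per sample and a line at the mean of the 2 replicates (0 where no peak was present). In EBs the K116A samples sit at 99.5% to 99.8% for the 3 Cdkn2 genes, and the Jarid2-/- samples have the lowest ranks at Cdkn1c. The window of Cdkn2a is that of the Arf start.

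At Cdkn1c the domain also differed in length. The peak over the gene spanned 21346 and 64965 bp in the K116A EB samples, the latter reaching into Kcnq1, against 3168 and 3974 bp in EBs rescued with Jarid2 and 1523 and 2662 bp in Jarid2-/- EBs. Among the widths of all broad peaks of the sample, these ranked at 98.7% and 99.9%, 72.8% and 81.9%, and 38.8% and 54.7%. The share of all genes with this order of widths was not counted. Both rescued EB libraries were the shallower ones, as given above, and the part of depth was not tested. Over the gene and 25 kb on each side, the covered share was 60.9% and 92.9% in K116A EBs, 20.5% and 32.4% with Jarid2, and 20.9% and 29.3% in Jarid2-/- EBs. The annotated start itself lay under a broad peak in 3 ESC samples and in 1 EB sample, which was K116A rescue replicate 2.

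Set against the Jarid2 peaks of E14 ESC, 14 of the 16 at these genes overlapped H3K27me3 in at least 1 ESC sample of the 3 lines (87.5%, against 83.3% of all Jarid2 peaks) and 13 in at least 1 EB sample (81.2%, against 73.1%). The 2 Jarid2 peaks with no H3K27me3 in any of the 12 samples were both at Cdkn1b, and 13.4% of all Jarid2 peaks were of this kind. The Cdkn1a peak overlapped H3K27me3 in 5 ESC samples and no EB sample, which was so for 0.962% of all Jarid2 peaks. Of the 10 common peaks, 9 overlapped the mark in at least 5 ESC samples, against 47.3% of all common Jarid2 peaks. Of the 6 without a partner, 2 did, against 15.7% of all such peaks. Several of these peaks lie together at Cdkn2a and Cdkn2b, at Cdkn1c and at Cdkn2c, so they are not independent. The genes were chosen with the scores known, and 37.5% of the 16 Jarid2 peaks score 3100, against 14.4% of the whole list. The shares of all peaks were not matched for score, so these counts are a description only.

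Across the 12 samples the covered shares of Cdkn2a, Cdkn2b and Cdkn2c were correlated, with a Pearson r of 0.853 between Cdkn2a and Cdkn2b, 0.805 between Cdkn2a and Cdkn2c and 0.862 between Cdkn2b and Cdkn2c, and Cdkn1c had an r of 0.732 with Cdkn2c. These are descriptions over points that share each sample's peak number. The genes more than 1 Mb away with the most similar pattern were Dmrta2, Lin28b and Gm9804 for Cdkn2a (r of 0.982, 0.98 and 0.979), Cbr3, Dscam and Bicc1 for Cdkn2b (0.952, 0.944 and 0.944), Kctd8 and Gcnt4 for Cdkn2c (0.947 and 0.946), Osbpl6, 5430407P10Rik and Gm4861 for Cdkn1c (0.949, 0.944 and 0.938), and Setd7, Gm9767 and Tmem200a for Cdkn1a (0.995 for each). Of the 31 cell cycle partners, 14 had a broad peak in the window in some sample. Of these 14, 1 was called higher, against 5.33% of all genes tested, and none was called lower, against 0.0612%. Ccna1, a cyclin of the germ line, was the partner called, with 2.04% in ESC and 27.4% in EBs (exact permutation, adjusted p = 0.0401). Its unadjusted p is the smallest that the test can give. All calls were lost when certain single samples were left out, as given above, so this call is not stable. Ccnd2 was the partner with a peak in all 12 samples, at 80.2% in ESC and 77.4% in EBs (adjusted p = 1 by the same permutation test).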

How the data were processed

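The CDK inhibitor genes, the gene lists and the tests were chosen with earlier results of these data known. The deposited lists hold positions (mm9) and a score. For Jarid2 the authors mapped reads with Bowtie2 (2.1.0), removed PCR duplicates and called peaks against input with MACS (1.4.2); the score is minus 10 times the log10 of the p-value. For H3K27me3 they called broad peaks per sample with MACS2 (2.0.10), and the deposited score has no stated scale. No sample was pooled. The 2 inputs are not analysed here. Peaks were compared with GENCODE on NCBIM37, with an overlap of at least 1 bp. The share of 10 kb around the 5′ end under broad peaks was tested for 8176 protein-coding genes with a peak in at least 1 sample, by a two-sided exact permutation test of the stage means, adjusted by Benjamini-Hochberg over all of them. limma (3.58.1) was an alternative. Scripts ran in Python (3.11.15) and R (4.3.3) and were tested on simulated data. Genes named were the 7 members, genes whose start lay under or nearest to an assigned peak, a list of cell cycle partners and, for members with the mark in at least 3 samples, the 3 most correlated distant genes. A start-site sequence and a correlated gene are not reported here. Ap1m2, Kcnq1 and Ccna1 were named after their values were seen. The deposited lists hold no read counts, and the read totals that the study states were not used, so no intervals are given for single values. Settings on the score, its rank and the gene with 25 kb were chosen after seeing the data. The permutation test moved the stage label freely over all 12 samples, which are 2 replicates of 3 lines at each stage. Differences between lines and replicates thus enter its p-values, which do not measure the spread between independent lines.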

Additional observations from a re-analysis of the deposited data

How the results depend on the processing

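The counts of assigned peaks and of genes with a peak were stable. With 10 or 50 kb, a score of at least 200, a shared lowest score or protein-coding transcripts only, every count stayed within 1.5 times of the reported count, and with 50 kb Cdkn2d gained peaks. Only the common Jarid2-K116me2 peaks moved, to 9 of 14, when an overlap of 50% of each peak was asked for. The share of Jarid2 peaks with a partner depended on weak peaks. A score of at least 200 left 13 Jarid2 peaks, and 10 of them were common. The peaks lost there (scores of 111, 160.93 and 170.11) all lacked a partner. That of 160.93 was the only Jarid2 peak over the Cdkn1b start.

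The number of all genes called between ESC and EBs was not stable. The exact test can call a gene only where many genes share its smallest p. That p is larger with fewer samples, and with permutation restricted to lines or by a replicate block. The part of this in each count was not tested. Of 441 genes called, 436 were higher in EBs. Both counts were 0 with a window of 1 kb, with all protein-coding genes, with permutation within lines, and with broad scores of at least 50 and the log2 of the highest score. They were 747 (739 higher) with a peak in at least 6 samples, 814 (790 higher) with limma, 1202 (517 higher) after subtraction of the sample mean, and 896 (890 higher) over the gene and 25 kb on each side. Leaving out each sample in turn gave 0 to 413 genes called and 0 to 412 higher, with 0 higher without any 1 of the 6 ESC samples but Jarid2-/- replicate 2, without either EB Jarid2-/- sample or without EB K116A rescue replicate 2. Among the members 0 were called in all of these leave-one-out fits, and 1 was called after subtraction of the sample mean (Cdkn1a, adjusted p = 0.0227) and 1 by the rank of the highest score, added later (Cdkn2c, adjusted p = 0.0383). The difference turned positive for Cdkn1c with 10 kb on each side (4.73), the log2 score (0.46) and the gene with 25 kb (13.2), and negative for Cdkn2a with replicate 2 only (-1.40).

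The replicate numbers were not taken to pair the samples, since the deviations of same-numbered samples correlated at over 0.1 in 8 of 15 pairs of groups and not in all. All 15 correlations were positive (0.00357 to 0.721), and those between the ESC groups were 0.664 to 0.721. With a replicate block, the exact test called 0 and 0 genes, and limma called 1606 genes, 1490 of them higher, and 2 members, Cdkn1a (adjusted p = 0.0329) and Cdkn2b (adjusted p = 0.0131).

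In ESC, K116A stood above the rescue for 2 members with 1 kb, for 0 with scores of at least 50, with the log2 score and with the gene and 25 kb, and for 3 after subtraction of the sample mean, which also gave 1 for Jarid2-/-. In EBs, Jarid2-/- stood above for 1 member and below for 1 by score rank, below for 1 with 1 kb or the log2 score, and above for 1 and below for 4 after subtraction, which put K116A below for 2. Without ESC Jarid2 rescue replicate 1 the ESC counts were 0 to 1. For 1 kb, scores of at least 50 and the log2 score, the share of all genes with the same order was not counted. The counts at these settings therefore have no background. For the other settings the shares are given above. Thresholds on q-values and fold enrichment were not run, since the lists hold neither. The lists hold no reads per peak, so no error of a score is given, and the part of sequencing depth in the counts was not tested.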
